A study of Mus musculus with 9 samples.

Results

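The genes described here encode ribosomal proteins and translation initiation factors. They are the rows of the RNA-seq table whose symbol starts with Rpl or Rps and a digit, or with Rplp, Rpsa, Eif or Eef, leaving out the ribosomal S6 kinases. There were 30 such genes among the 689 of the table, namely 9 proteins of the small ribosomal subunit, 13 of the large subunit, Rpl7l1, which is a ribosomal-protein-like gene, and 7 initiation factors. No elongation factor (Eef) was in the table. The libraries were made from frozen hemibrains of male C57BL/6 mice, 1 library per mouse, in 3 groups of 3. Young controls were 5 months old by the labels and came from JAX, aged controls and aged repopulated mice were 24 months old and came from NIA, so age and supplier cannot be told apart. Aged repopulated mice ate chow with PLX5622, an inhibitor of the receptor CSF1R that microglia need to survive, for 2 weeks and then control diet for 4 weeks, during which microglia returned, whereas both control groups ate control diet for 6 weeks. Values are RPKM, reads scaled to transcript length and to library size, and the table holds only genes that the authors' own model had called, a model whose stated groups were these and also young repopulated and aged eliminated mice, which are not analysed here. A call on the table is therefore not independent evidence, and ribosomal protein genes outside it are not analysed here.

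Ribosomes are built from a small subunit, which decodes mRNA, and a large subunit, which joins amino acids, and each subunit holds many proteins made in near-equal numbers. Initiation factors bring the initiator tRNA and the small subunit to the start codon and then admit the large subunit. Most ribosomal protein mRNAs are short, are abundant in every cell type, and begin with a C followed by a run of pyrimidines, the 5′ terminal oligopyrimidine (TOP) tract, through which their translation responds to the kinase mTOR.

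The TOP tract was the sequence feature sought at the starts of these genes, with RefSeq promoters on build GRCm38.p6. Promoters of 25 of the 30 genes were matched, and 8 of the 25 (32.0%) had a C within 5 bases of the annotated start followed by at least 4 pyrimidines, against 21.2% of the 27025 genes with a promoter. The 8 were Eif3f, Rpl13a, Rpl14, Rpl35a, Rpl39, Rps10, Rps18 and Rps24. The search depends on the annotated starts, so a gene outside the 8 is not shown to lack a tract. The windows of the 5 with this C at the annotated start itself are shown because they include Rpl14 and Rpl35a, on which later comparisons turn. Each window runs from 15 bases before the start through the first 15 transcribed bases, and capitals mark the tract as counted from that C. In all 5 windows pyrimidines also directly precede the capitals, so where the tract begins rests on the annotated start. The windows lie at chr7:108934400-108934429 on the plus strand for Eif3f, chr9:120571502-120571531 on the plus strand for Rpl14, chr16:33056467-33056496 on the plus strand for Rpl35a, chr17:27635230-27635259 on the minus strand for Rps10 and chr17:33955651-33955680 on the minus strand for Rps18.
Eif3f: tctgttctaggctctCTCTCTTTCTCggca
Rpl14: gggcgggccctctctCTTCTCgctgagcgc
Rpl35a: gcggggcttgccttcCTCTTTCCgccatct
Rps10: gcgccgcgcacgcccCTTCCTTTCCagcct
Rps18: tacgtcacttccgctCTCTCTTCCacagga
Counted from the annotated start, the tract was 11 bases long in Eif3f, 6 in Rpl14, 8 in Rpl35a, 10 in Rps10 and 9 in Rps18.

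In the window from 250 bases before to 50 after the start, on either strand, CCGGAAG, the core recognised by ETS factors, occurred in 9 of the 25 genes (36.0%) and in 9.93% of all genes. AAGATGGC, the core recognised by YY1, occurred in 5 of 25 (20%) against 3.19%, and TATAAA, the TATA box, in 4 of 25 (16%) against 15.7%. These are matches of letters only, and no binding was measured.

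The summed level of the 22 ribosomal protein genes was lowest and tightest in young brains. It was 1741, 1741 and 1724 RPKM in the young libraries, 1922, 2211 and 2015 in the aged controls and 1907, 1788 and 1959.6 after repopulation, replicates 1 to 3 in each case. The means were 1735 ± 9.82, 2049.5 ± 148 and 1885 ± 87.9 RPKM (SD, n = 3), so that both aged groups lay above every young library, and aged controls and repopulated mice overlapped. The 7 initiation factors summed to 287, 283 and 290.2 RPKM in the young, 299, 309 and 311 in the aged control and 293, 290.1 and 302 in the repopulated libraries. Here repopulated mice overlapped with both other groups. The 689 genes together also summed higher in aged controls, to 24214 ± 614 RPKM against 22282 ± 44.5 in young controls, and ribosomal proteins made up 7.79 ± 0.059% of the table's RPKM in young brains, 8.46 ± 0.395% in those of aged controls and 8.06 ± 0.236% after repopulation.

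**Figure D1:**
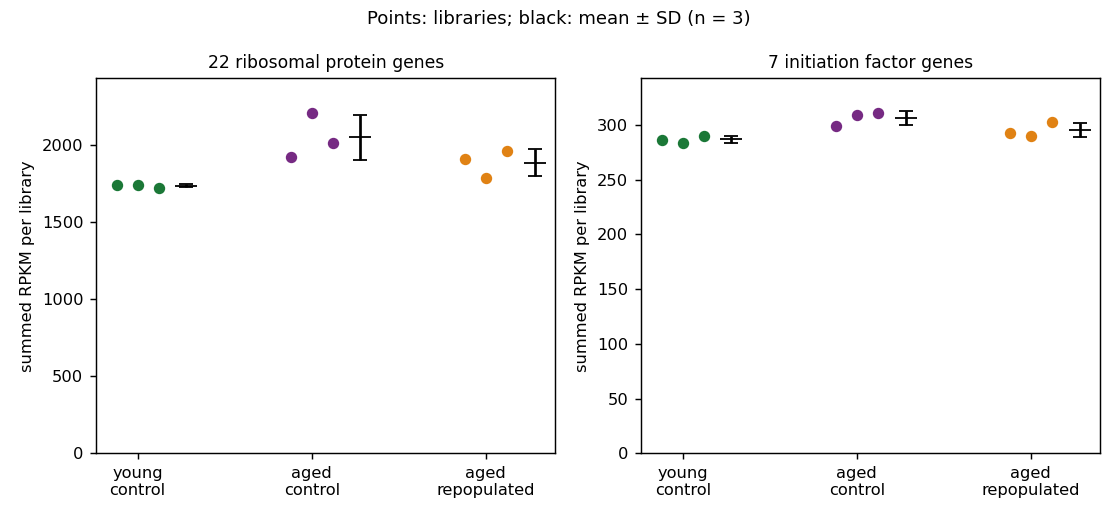
Summed RPKM per library (vertical axis, from 0) of the 22 ribosomal protein genes (left) and the 7 initiation factor genes (right) by group, with points for libraries and black marks for the mean ± SD. The aged control sums of ribosomal proteins span 1922 to 2211 RPKM and lie above the young sums of 1724 to 1741, while the repopulated sums of 1788 to 1960 overlap with the aged controls.

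A pair of libraries stood apart within their groups. Aged control replicate 2 was the highest aged control for 21 of the 22 ribosomal proteins, and aged repopulated replicate 2 was the lowest repopulated library for 20 of the 22. The median log2 difference of the ribosomal proteins from the young mean was 0.16, 0.35 and 0.22 in aged control replicates 1, 2 and 3, and 0.13, 0.049 and 0.18 in aged repopulated replicates 1, 2 and 3. For the 659 other genes these medians were 0.063, 0.10 and 0.087, and 0.039, 0.025 and 0.041. Markers of cell types were few in this table. Of 11 microglial markers 7 were present, with Cx3cr1, P2ry12, Tmem119 and Aif1 not among its rows, and their sum was 113 to 119 RPKM in the young, 179 to 215 in the aged control and 169.6 to 257 in the repopulated libraries. Of 8 neuronal markers, Rbfox3 and Gad1 were present, with sums of 169 to 182, 187 to 205 and 178 to 181 RPKM. Of 7 oligodendrocyte markers Opalin was present, at 15.5 to 19.0, 10.9 to 13.2 and 12.1 to 19.2 RPKM, 3 of 6 endothelial markers summed to 55.9 to 56.1, 46.6 to 53.7 and 41.9 to 51.5 RPKM, and none of the 6 astrocyte markers was present. In whole-tissue RNA, more cells of a type and more RNA per cell cannot be told apart, and the part of cell type shares in the results below was not tested.

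Ribosomal protein mRNAs were higher in aged than in young control brains. With limma on log2(RPKM + 1), at an adjusted p under 0.05 over the 689 genes, 28 of the 30 genes were called higher, including all 22 ribosomal proteins, Rpl7l1 and 5 of 7 initiation factors, a direction that did not hold with a correction for transcript length, after which 18 of the 30 were negative, and that turned in Rpl32 and Eif1b with quantile normalization. In the table as a whole 46.3% of genes were called higher. No member was called lower (16.5% of the table), and 28 had an unadjusted p under 0.05, every one of them higher, against 479 of the 689 genes in either direction. In the same 28 genes every aged control library lay above every young library, a separation seen in 50.7% of the table, and in 0 members the reverse held (19.4%). The differences were small, with a median of 0.25 on the log2 scale over the ribosomal proteins (range 0.14 to 0.36), 0.12 over the initiation factors (range -0.086 to 0.21) and 0.096 over all genes of the table. Because the median over all genes was itself shifted, each library was also centred on its median over the table, which moved that median to -0.012. All 22 ribosomal proteins stayed higher with a median of 0.14, but 12 of the 30 genes were then called higher and 2 lower, and the calls of the table went from 319 higher and 114 lower to 78 and 215.

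**Figure D2:**
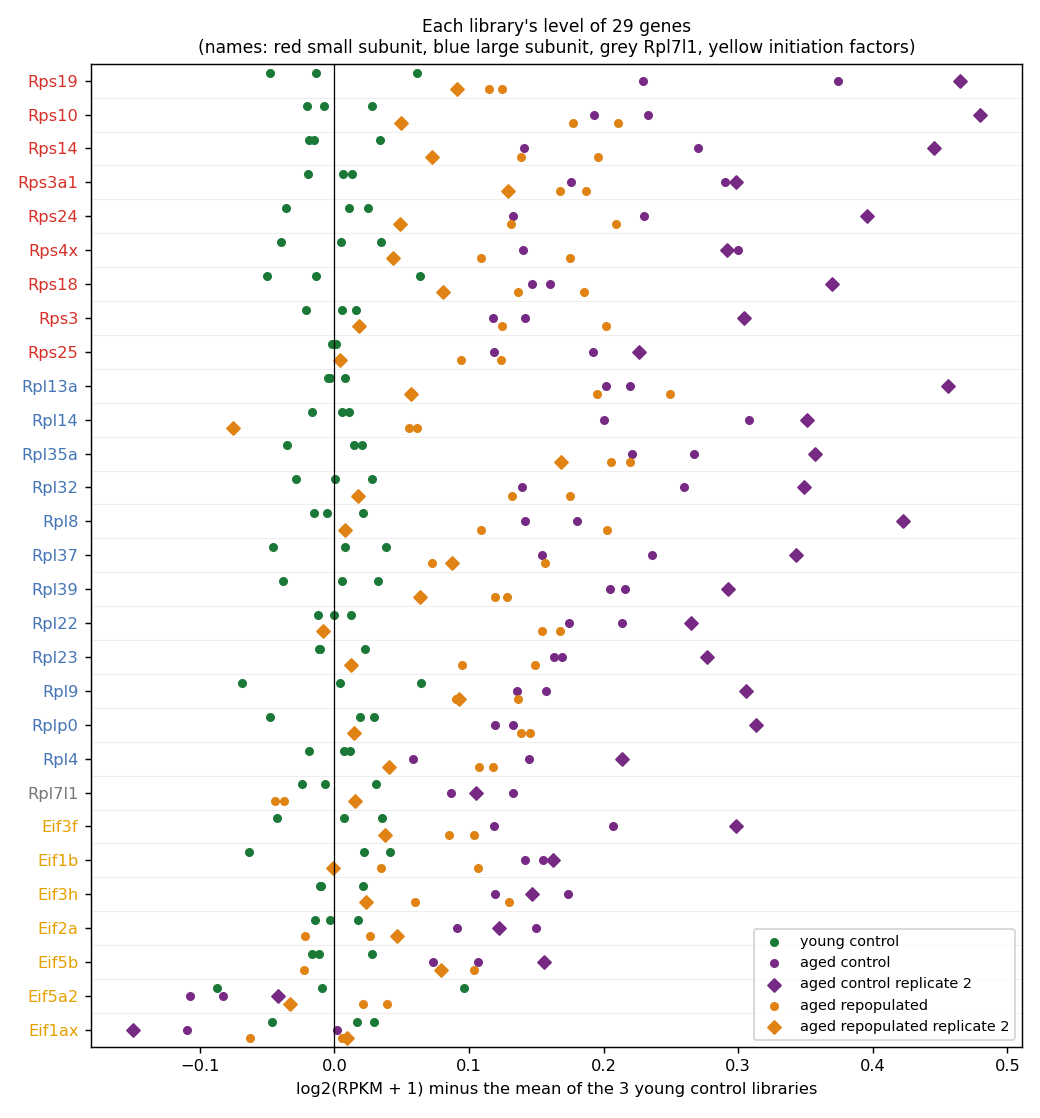
Level of 29 of the 30 genes in each library, as log2(RPKM + 1) minus the mean of the young controls (horizontal axis), with diamonds for replicate 2 of each aged group. Aged control libraries lie right of all young libraries in every gene drawn but Eif5a2 and Eif1ax, on the deposited scale and without a correction for transcript length, which made 16 of the 28 called differences negative.

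Among the 9 small-subunit proteins the median difference with age was 0.25, with a range from 0.18 in Rps25 to 0.36 in Rps19. Rps19, needed to mature the small subunit's RNA and mutated in Diamond-Blackfan anaemia, was at 20.1, 21.8 and 20.7 RPKM in the young libraries, 24.6, 29.2 and 27.3 in the aged controls and 22.7, 22.3 and 22.8 after repopulation. All aged controls were above all young and all repopulated libraries. The means were 20.9 ± 0.854 and 27.0 ± 2.29 RPKM (SD, n = 3) in young and aged controls, a rise of 29.6% and of 0.36 ± 0.056 (SE) on the log2 scale (limma, adjusted p = 0.0057), the largest among the 30 genes. The gene lies at chr7:24884371-24889806, plus strand, on GRCm38 by GENCODE M21, and Rps3a1, described next, at chr3:86137940-86142702, minus strand. Rps3a1, a protein near the mRNA exit of the subunit, was at 76.3, 74.5 and 75.9 RPKM in the young libraries, 85.5, 93.2 and 92.7 in the aged controls and 85.0, 82.8 and 86.1 after repopulation. Young libraries lay below all others, and aged control replicate 1 fell within the repopulated range. Its difference with age was 0.25 ± 0.039 on the log2 scale (limma, adjusted p = 0.0057).

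Rps4x, the X-linked S4 protein, was at 95.3, 93.4 and 90.5 RPKM in the young libraries, 103, 114 and 115 in the aged controls and 100.4, 95.9 and 105 after repopulation, with a difference with age of 0.24 ± 0.051 (limma, adjusted p = 0.0087). Aged control replicates 2 and 3 were above everything else, and replicate 1 lay inside the repopulated range. Rps10 and Rps24, other proteins mutated in Diamond-Blackfan anaemia, rose by 0.30 and 0.25, and Rps14, deleted in a myelodysplastic syndrome, by 0.29. In these 3 genes aged control replicate 2 stood well above the other aged controls, at 209.6 RPKM against 169 and 185 for Rps14. Rps18, of the head of the subunit, rose by 0.23, Rps3, which lines the mRNA entry channel, by 0.19, and Rps25, used by viral internal ribosome entry sites, by 0.18. The 3 young libraries of Rps25 were within 97.0 to 97.2 RPKM, and the aged controls ran from 106 to 114.

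The 13 large-subunit proteins had a median difference with age of 0.24 and a range from 0.14 in Rpl4 to 0.29 in Rpl13a. Rpl35a, whose TOP tract is shown above and which is also mutated in Diamond-Blackfan anaemia, was at 20.2, 20.1 and 19.4 RPKM in the young libraries, 24.1, 25.7 and 23.3 in the aged controls and 23.3, 22.5 and 23.1 after repopulation. The 3 groups were fully separated in this order of young, repopulated and aged control. The difference with age was 0.28 ± 0.040 (limma, adjusted p = 0.00409), the smallest adjusted p among the 30 genes. Rpl39, a small protein lining the exit tunnel for the growing chain, was at 52.2, 53.9 and 54.9 RPKM in the young libraries, 61.9, 65.9 and 62.4 in the aged controls and 58.7, 56.1 and 58.3 after repopulation, and rose with age by 0.24 ± 0.037 (limma, adjusted p = 0.0057). Its groups, too, did not overlap.

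Rpl14, whose TOP tract is shown above, was at 27.9, 28.4 and 28.3 RPKM in the young libraries. It was at 32.5, 36.2 and 35.1 in the aged controls and 29.5, 26.7 and 29.3 after repopulation. Aged controls lay above both other groups, which overlapped with each other. The gene lies at chr9:120571444-120574654, plus strand, and Rpl35a at chr16:33056453-33060189, plus strand (GRCm38). The rise with age of Rpl14 was 0.29 ± 0.049 (limma, adjusted p = 0.00656). Of the others, Rpl13a, also part of a complex that silences inflammatory mRNAs in myeloid cells, rose by 0.29, Rpl32 by 0.25, Rpl8, near the peptidyl transferase centre, by 0.25, Rpl37 by 0.24 and Rpl22 by 0.22. Rpl23 rose by 0.20, Rpl9 by 0.20, Rplp0, the base of the stalk that binds GTPase factors, by 0.19, and Rpl4, which reaches into the exit tunnel, by 0.14. Rpl4 was among the most abundant members, at a mean of 224 RPKM in young controls, and Rpl37 among the lowest ribosomal proteins, at 16.4 RPKM. Across the 22 ribosomal proteins the difference with age was weakly related to the level (Spearman's rho = -0.26, across genes of the same libraries and given as a description).

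Rpl7l1, a homologue of Rpl7 that acts in ribosome assembly, was at 12.7, 13.0 and 12.5 RPKM in the young libraries, 13.6, 13.8 and 14.1 in the aged controls and 12.4, 12.9 and 12.3 after repopulation. Aged controls were above all other libraries, and young and repopulated libraries overlapped. Its rise with age was 0.11 ± 0.032 (limma, adjusted p = 0.0188).

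Initiation factors split by gene. Eif3f, a subunit of the scaffold factor eIF3 whose TOP tract is shown above, was at 48.6, 46.0 and 47.6 RPKM in the young libraries, 51.5, 58.5 and 54.9 in the aged controls and 51.0, 48.7 and 50.3 after repopulation. The 3 groups did not overlap, with aged controls highest and young controls lowest, and the rise with age was 0.21 ± 0.047 (limma, adjusted p = 0.00962). Eif3h, another eIF3 subunit, was at 59.3, 59.3 and 60.6 RPKM in the young libraries, 65.0, 66.3 and 67.5 in the aged controls and 62.4, 60.8 and 65.5 after repopulation. Its groups of young and aged controls were separated by 0.15 ± 0.035 (limma, adjusted p = 0.0105), and repopulated replicate 3 reached into the aged control range. Eif1b, a relative of the start-codon selection factor eIF1, was at 67.0, 72.1 and 71.1 RPKM in the young libraries, 77.3, 78.5 and 78.1 in the aged controls and 71.7, 69.9 and 75.5 after repopulation, and rose with age by 0.15 ± 0.040 (limma, adjusted p = 0.0126). All its aged controls lay above the other libraries. Eif2a, an alternative carrier of initiator tRNA that is distinct from the eIF2 complex, rose by 0.12, and Eif5b, the GTPase that joins the subunits, by 0.11 (limma, adjusted p = 0.0362). The call of Eif5b was lost without any 1 of the young libraries and without aged control replicate 1 or 2 (limma, adjusted p up to 0.113). Of the other calls with age, those of Rps3, Rpl4 and Rplp0 were lost without aged control replicate 2, and single young libraries decided them too, as they did those of Rpl8 and Rpl7l1 (replicate 1 or 3 for Rpl7l1, 2 for Rplp0 and 3 for the others).

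Eif1ax and Eif5a2, which were singled out after their values were seen, were the members that did not rise. Eif1ax, the X-linked gene of the scanning factor eIF1A, was at 61.0, 58.3 and 61.5 RPKM in the young libraries, 55.8, 54.2 and 60.4 in the aged controls and 57.7, 60.7 and 60.5 after repopulation. Aged control replicates 1 and 2 were the lowest of the 9 libraries and replicate 3 lay among the young, with a difference of -0.086 ± 0.045 (limma, adjusted p = 0.114). Eif5a2, a relative of eIF5A, which despite its name mainly assists elongation and termination, was at 22.1, 19.4 and 20.5 RPKM in the young libraries, 19.1, 20.003 and 19.4 in the aged controls and 21.2, 20.1 and 20.95 after repopulation. Young and aged controls overlapped, and the difference was -0.078 ± 0.047 (limma, adjusted p = 0.164). Eif1ax and Eif5a2 were both called lower with centring on the median of all genes or of non-members (31.2% and 30.8% of the table). With quantile normalization Eif5a2 was called lower (27.4% of the table). These genes had annotated transcripts of 5172 and 5027 nucleotides, longer than every other member but Eif5b.

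The age difference was lower the longer the transcript, in members and in other genes alike. The annotated transcripts of the ribosomal proteins had a median length of 1034 nucleotides (519 to 2690), against 3179 for the 686 genes of the table with a length. Of 4 equal length classes of the table, the shortest, up to 1849 nucleotides, held 151 genes that are not members, with a median age difference of 0.18 and 144 positive, and 21 members with one of 0.25. Under 1000 nucleotides the medians were 0.22 for 48 other genes and 0.25 for 9 members. In the longest class, from 5000 nucleotides, the 169 other genes had a median of -0.094 and the 3 members one of -0.078. Spearman's rho between the age difference and length was -0.66 over the 30 members, -0.39 over the 22 ribosomal proteins and -0.64 over the 656 other genes with a length, which is a description across genes that share their libraries. After each library was corrected for a loess trend on transcript length, 2 members, Rps19 (0.13, adjusted p = 0.0450 in limma) and Eif5b (0.19, adjusted p = 0.0179), were called higher, against 9.62% of the table with the same correction, and the members' median was -0.012. The trend was also fitted on the other genes alone, an alternative chosen after seeing the data. Eif5b (0.19, adjusted p = 0.0176 in limma) was then the one member called higher, against 9.48% of the table. No member was called lower, against 14.4% of the table. Rps19 had 0.13 (adjusted p = 0.0521) with this fit. A loess correction for GC content left 16 members called higher, against 16.2% of the table with that correction. Whether transcript length, or a property of the RNA or libraries that goes with it, has a part in the differences was not tested beyond these fits.

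**Figure D3:**
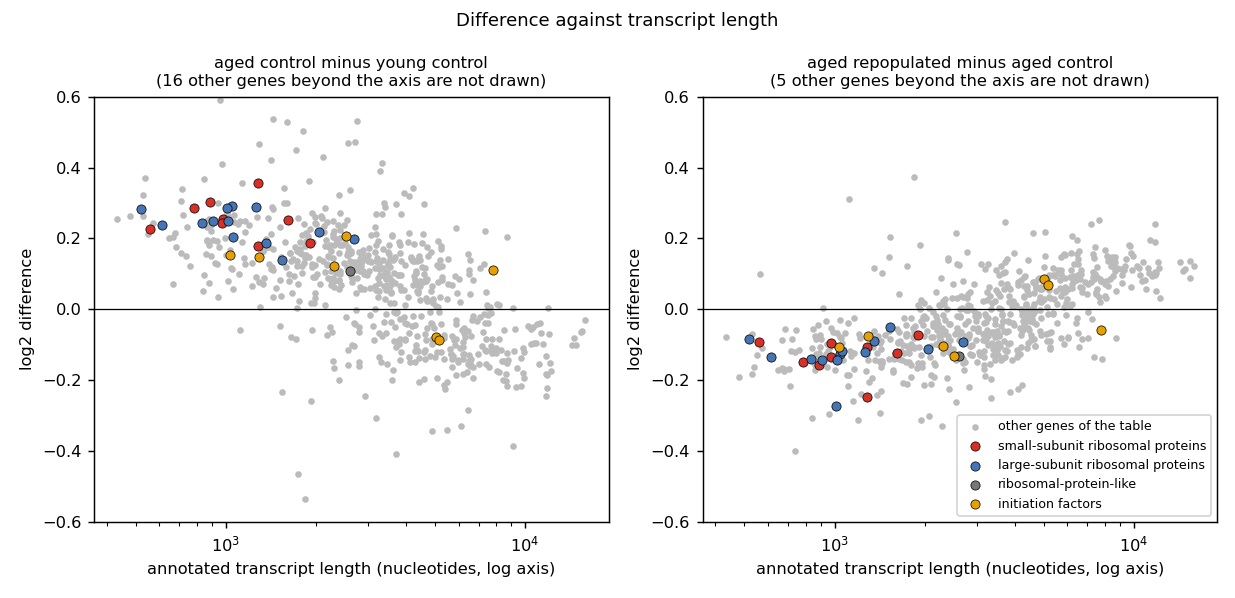
Log2 difference (vertical axis) against annotated transcript length on a log axis, for aged control minus young control (left) and aged repopulated minus aged control (right), with the 30 genes coloured by role and the other genes of the table in grey. Ribosomal proteins lie within the band of the other short transcripts, above 0 on the left and below 0 on the right, and Eif1ax and Eif5a2 lie with the long transcripts on the other side of 0 in both panels. The length correction removes the shared direction.

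**Figure D4:**
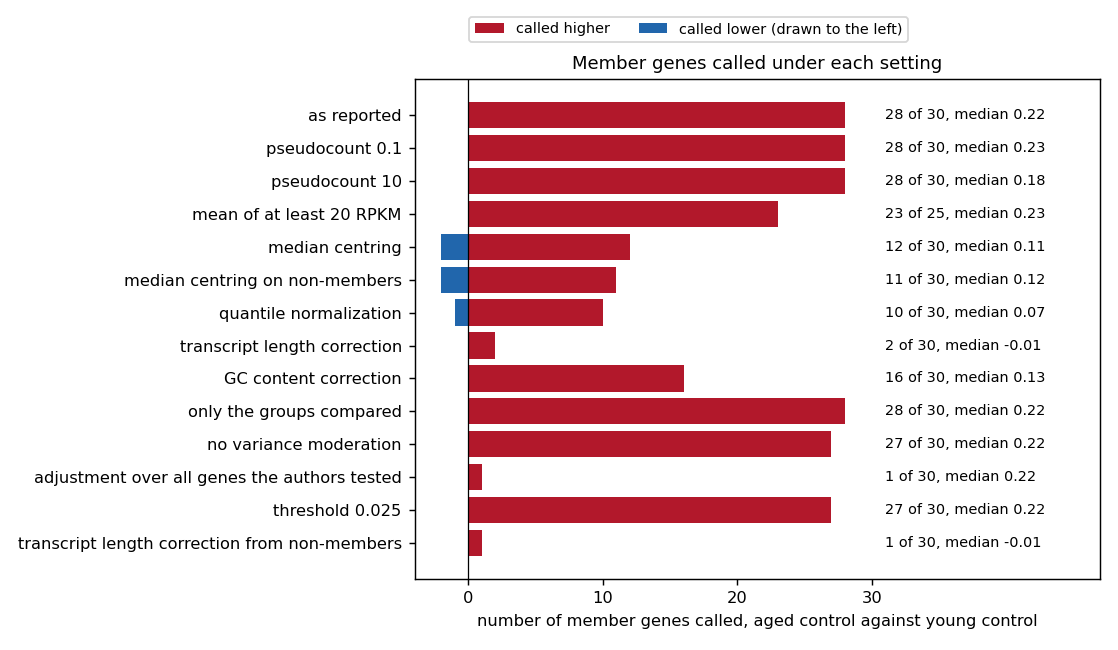
Number of the 30 genes called higher (red, to the right) and lower (blue, to the left) in aged against young controls under each setting, with the count called higher, the number of members tested and their median log2 difference beside each bar. The count goes from 28 as reported to 2 with the transcript length correction, where the median is -0.012, and to 1 when p-values are adjusted over every gene the authors tested, while the count over the table goes from 319 to 66 and to 7.

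In aged repopulated against aged control brains the differences of most members were negative, and few passed the test. Rpl14, Rps19 and Rpl7l1 were called lower, 3 of the 30 genes against 5.81% of the table, and none was called higher (2.9%; 15 members and 271 of the 689 genes had an unadjusted p under 0.05). Differences were negative in 28 of the 30 genes, in all 22 ribosomal proteins, a direction that split into 9 positive and 13 negative with the length correction (8 and 14 with its form from the other genes) and that turned in 1 ribosomal protein each with median centring and quantile normalization. In 11 members every repopulated library lay below every aged control (22.2% of the table), and in Eif5a2 every one lay above (15.2%). The median difference was -0.12 over the ribosomal proteins, -0.075 over the initiation factors and -0.047 over all genes. In the shortest length class it was -0.12 in 21 members and also -0.12 in 151 other genes. This comparison and the one with age share the aged control libraries, so that a high aged control enters both with opposite sign. With each library centred on its median over the table, 2 members, Rps19 and Rpl14, were called lower and none higher. The calls of the table then went from 20 higher and 40 lower to 111 (16.1%) and 22 (3.19%).

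Rpl14 had the largest difference between repopulated mice and aged controls among the 30 genes, -0.27 ± 0.049 on the log2 scale (limma, adjusted p = 0.0228), from 34.6 ± 1.90 to 28.5 ± 1.56 RPKM (SD, n = 3). All repopulated libraries were below all aged controls, and repopulated replicate 2, at 26.7 RPKM, was below every young library. It was also the one member called lower with either length correction, by -0.15 in each (limma, adjusted p = 0.0489 and 0.0490), against 0.875% and 1.02% of the table. Rps19 differed by -0.25 ± 0.056 (limma, adjusted p = 0.0409), from 27.0 ± 2.29 to 22.6 ± 0.278 RPKM, and its repopulated libraries lay within 22.3 to 22.8 RPKM. Rpl7l1 differed by -0.13 ± 0.032 (limma, adjusted p = 0.0452), from 13.8 ± 0.236 to 12.5 ± 0.307 RPKM. With the length correction Rps19 and Rpl7l1 were no longer called, at -0.13 and -0.059.

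These calls turned on single libraries. Without aged control replicate 2, the library with the highest ribosomal protein levels, no member was called lower, with 4 lower calls left in the table, and the members' median went from -0.12 to -0.074. Without aged control replicate 1, which had the lowest ribosomal protein sum of that group, 12 members were called lower, and the lower calls of the table rose from 40 to 97 (14.1%). Leaving out aged control replicate 3, young replicate 2 or repopulated replicate 3 also left 0 calls, with 3, 4 and 2 lower calls in the table, and leaving out repopulated replicate 1 or 2 or young replicate 1 or 3 left Rpl14 alone, with 11 to 19 in the table.

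Among the members not called, Rpl39 differed by -0.13 ± 0.037 between repopulated mice and aged controls (limma, adjusted p = 0.052), Eif2a by -0.10 (adjusted p = 0.0644) and Eif3f by -0.13 (adjusted p = 0.085). In all 3 the repopulated libraries were below the aged controls without overlap. Rpl35a, with groups that also did not overlap, differed by -0.084 (adjusted p = 0.143) and Rpl4 by -0.050 (adjusted p = 0.366), the smallest of the ribosomal proteins. Eif5a2 had 0.087 (adjusted p = 0.181) and Eif1ax 0.070 (adjusted p = 0.244), the members with a positive value.

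**Figure D5:**
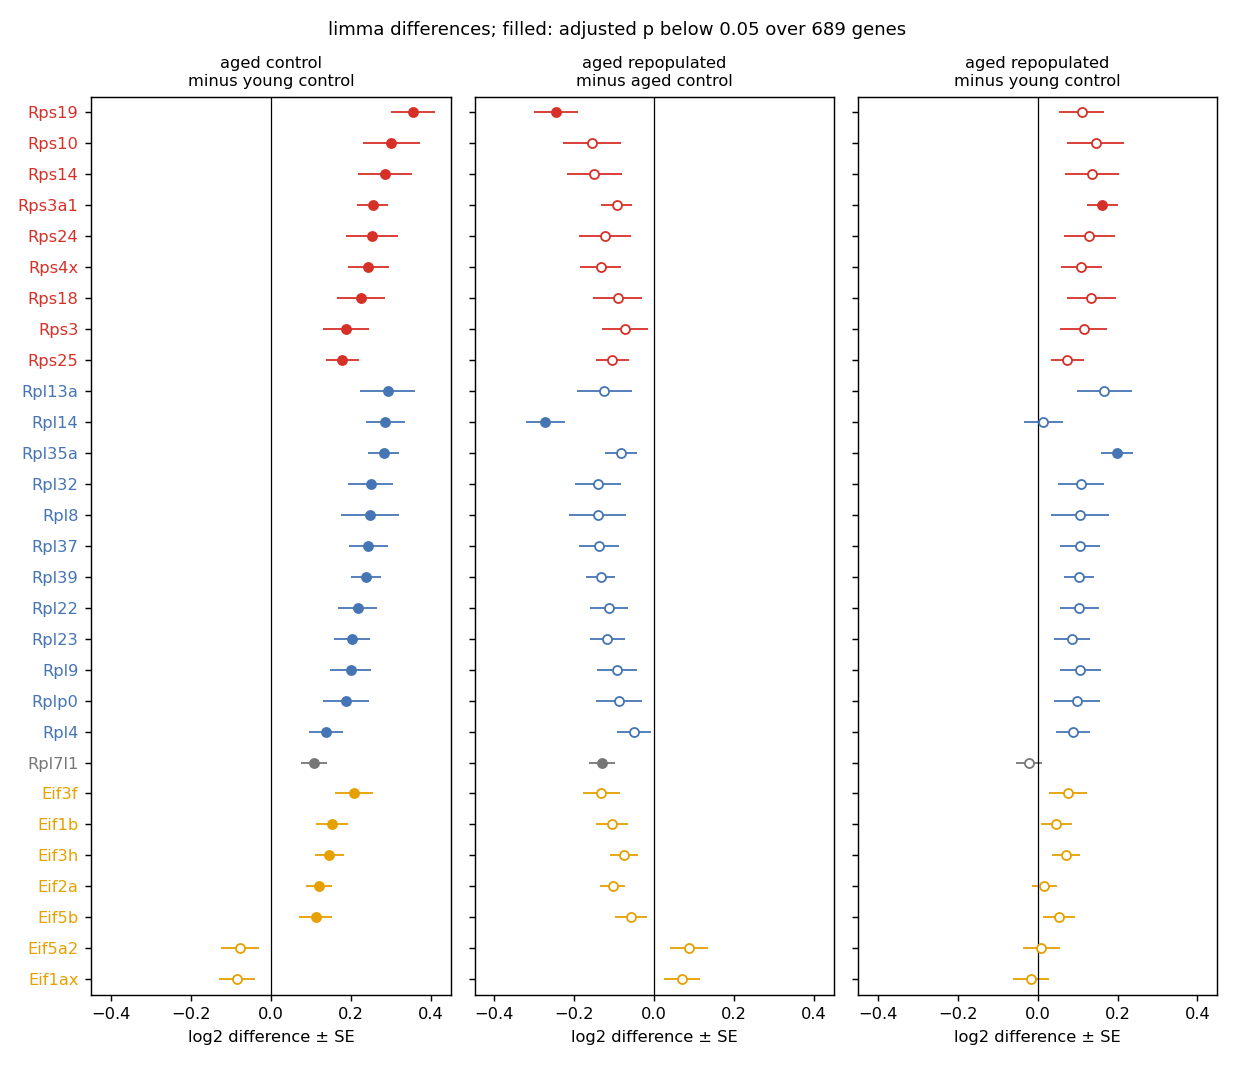
Log2 difference ± SE of 29 of the 30 genes in aged control minus young control, aged repopulated minus aged control and aged repopulated minus young control (horizontal axes, same scale), with filled symbols at a limma adjusted p below 0.05 over 689 genes. The filled symbols number 27, 3 and 2, on the deposited scale, and with the length correction the ribosomal proteins fall on both sides of 0 in all 3 panels.

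Aged repopulated mice lay between young and aged controls for most ribosomal proteins. Against young controls all 22 were positive, with a median of 0.11, a direction that turned in 13 of them with the length correction (15 with its form from the other genes), in 5 with quantile normalization and in 1 each with either median centring, with the GC correction and without repopulated replicate 1 or 3. Rpl35a and Rps3a1 were called higher, 2 of the 30 genes against 4.21% of the table, and none was called lower (0.726%; 5 members and 196 of the 689 genes had an unadjusted p under 0.05). Rpl35a differed by 0.20 ± 0.040 (limma, adjusted p = 0.0206), from 19.9 ± 0.445 to 22.9 ± 0.435 RPKM, and Rps3a1 by 0.16 ± 0.039 (limma, adjusted p = 0.0454), from 75.6 ± 0.904 to 84.6 ± 1.73 RPKM (SD, n = 3). Neither call held without repopulated replicate 1 or 3 or without any 1 of the young libraries (1.31% to 3.19% of the table called higher), and 4 members, Rpl22 among them, were called without repopulated replicate 2, where the higher calls of the table rose from 29 to 51 (7.4%). Without aged control replicate 3 Rpl35a was called alone (3.77%). Every repopulated library lay above every young one in 18 members (31.5% of the table) and below in 0 (11.2%). All 9 small-subunit proteins and 7 of the 13 large-subunit proteins were among the 18, the others being Eif3f and Eif3h.

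At the other end, Rpl14 had a difference of 0.014 ± 0.049 between repopulated and young mice (limma, adjusted p = 0.859; 95% interval -0.096 to 0.12). With the length correction Rpl14 was the one member called lower in this comparison, by -0.12 (limma, adjusted p = 0.0390), against 6.56% of the table. Rpl7l1 had -0.022 (adjusted p = 0.654; interval -0.094 to 0.050) and Eif1ax -0.016 (adjusted p = 0.824).

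Ribosomal protein genes have many processed pseudogenes, and the reads of shared stretches may have been counted for either copy, since the handling of such reads is not stated. All 22 ribosomal proteins shared at least 1 50-base stretch of their transcript with another annotated gene. In 7 of them more than 50% of the stretches were shared, up to 86.7% in Rps18, 72.8% in Rps25 and 72.2% in Rps4x. The share counts matches on either strand to any annotated gene, so it does not measure pseudogene copies alone. Rps3, at 2.96%, and Rpl22, at 5.20%, were the most distinct, and rose with age by 0.19 and 0.22. For Rpl14 the share was 49.3%, for Rps19 25.3%, with 14 named pseudogenes, and for Rpl35a 51.3%. Among the initiation factors the share was 26.2% in Eif3h and 18.2% in Eif5b, which is above that of several ribosomal proteins, 1.02% in Eif2a, 0.811% in Eif1b and 0 in Eif3f, Eif5a2 and Eif1ax. Spearman's rho between this share and the age difference was 0.57 over the 30 members and 0.25 over the 22 ribosomal proteins, a description across genes of the same libraries. Although subunit proteins are needed in near-equal numbers, mean levels per transcript length ranged over the 9 libraries from 17.9 RPKM in Rpl37 to 236 RPKM in Rpl4.

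Other genes of translation were taken from a list of related families, and 9 of those listed were in the table. The list does not cover every gene of translation or ribosome assembly. Of 4 mitochondrial ribosomal proteins, Mrpl33 went from 18.4 ± 0.885 to 22.2 ± 0.515 RPKM (SD, n = 3) with age, by 0.26 (limma, adjusted p = 0.00656), and Mrpl42 by 0.20 (adjusted p = 0.0079), while Mrps33 (0.10, adjusted p = 0.0659) and Mrps6 (0.096, adjusted p = 0.185) did not pass. In repopulated mice against aged controls Mrpl33 was lower by -0.19 (adjusted p = 0.0452). Gspt1, the release factor eRF3a, with a transcript of 3716 nucleotides, was called lower with age by -0.11 (adjusted p = 0.0228). Ybx1, an mRNA-packaging protein, the helicase gene Ddx3x, the eIF4E kinase gene Mknk2 and the mTORC1 brake Tsc1 were called in none of the 3 comparisons. In all, 2 of the 9 were called higher and 1 lower with age, against 46.3% and 16.5% of the table, and 0 and 1 with repopulation, against 2.9% and 5.81%. No tRNA synthetase or listed ribosome-assembly gene was among the 689.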

How the data were processed

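RNA from 1 hemibrain per mouse was sequenced in 9 libraries of 3 groups. The authors called bases with CASAVA 1.8.2, aligned reads to mm10 with ELAND and deposited RPKM values of the 689 genes that their linear model had called. The stated groups of that model also include young repopulated and aged eliminated mice, which are not analysed here. The name of the deposited data says that other libraries were excluded, and whether from the model or only from the deposited values is not stated. The counting step is not given in the sources used here, and read depth is unknown, so that precision rests on the spread between libraries. Further columns, the authors' own F and t statistics with p-values for their model terms, were not used. Every library column was mapped (0 unmapped). No 2 libraries held identical values.

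Differences in log2(RPKM + 1) were estimated by limma 3.58.1 (R 4.3.3), all 9 libraries in one fit, with 3 contrasts, moderated variances and Benjamini-Hochberg adjustment over the 689 genes, called at 0.05. Summaries used pandas 2.3.3 under Python 3.11.15, and figures matplotlib 3.10.9. The code was tested on simulated data. Lengths are of the longest basic coding transcript in GENCODE M21 (686 of 689 symbols matched, 19 through an older symbol). For genes without a coding transcript, such as Gas5 and Snhg12, a non-coding transcript gave the length. Genes with values in every library were the 3 called members with the smallest p in each role group, the member with the largest difference in each contrast and every member called with repopulation, and Eif1ax and Eif5a2 were added. Values of 1 member are not reported here, and it stays in the counts. The members and lists were chosen with earlier results of these data known.

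Alternatives were pseudocounts of 0.1 and 10, untransformed RPKM, a mean of at least 20 RPKM, centring on the median of all genes or of non-members, quantile normalization, loess corrections for length and GC, other variance, sample, adjustment (over the 6145 genes the authors tested) and threshold (0.025) choices, and each library left out. The length correction fitted on non-members was added after seeing the data.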

Additional observations from a re-analysis of the deposited data

How the results depend on the processing

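Pseudocounts, the filter of 20 RPKM and the threshold of 0.025 kept at least 23 members called higher with age (46.4% and 45.9%, 54.3%, and 37.3% of the genes tested), the 23 being of 25 members that the filter left, and a pseudocount of 10 gave a median of 0.18. For age, members called higher (and lower) numbered 12 (2) with median centring, 11 (2) with centring on non-members, 10 (1) with quantile normalization, 16 with GC correction, 2 with length correction, 1 with that correction from non-members and 1 with adjustment over all genes the authors tested. In the same order 11.3% (31.2%), 10.4% (30.8%), 12.8% (27.4%), 16.2%, 9.62%, 9.48% and 1.02% of the table were called. The medians for age were 0.11, 0.12, 0.072 and 0.13 for the first 4 of these and -0.012 with both length corrections.

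For repopulated against aged controls, 1 member was called lower with untransformed RPKM, either length correction or a threshold of 0.025, and 0 with only the groups compared, no variance moderation or adjustment over all genes the authors tested. Of all genes in the table, 2.18%, 0.875%, 1.02% and 1.16% were called lower in the former settings and 0.726%, 0.435% and 0.145% in the latter. Rps19, Rpl14 and Rpl39 were called lower with a pseudocount of 10, the filter of 20 RPKM and quantile normalization (5.52%, 6.16% and 3.05% of the genes tested). Rps19 and Rpl14 alone were called lower with median centring, centring on non-members and GC correction (3.19%, 3.34% and 3.35%). With these, 16.1%, 14.1% and 6.71% of the table but no member were called higher. The medians were -0.061 with median centring, -0.070 with centring on non-members, -0.048 with quantile normalization, -0.069 with GC correction, and -0.0098 and -0.011 with the length correction and its form from non-members.

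For repopulated against young controls, 1 member was called higher with either median centring, GC correction or a threshold of 0.025, and 0 with untransformed RPKM, quantile normalization, either length correction, no variance moderation or adjustment over all genes the authors tested. Of all genes in the table, 3.34%, 3.05%, 3.5% and 3.34% were called higher in the former settings and 0.726% to 3.5% in the latter. The share of the table called lower went from 0.726% to 5.52% with median centring and 6.24% with centring on non-members, with no member among them. With either length correction 1 member and 6.56% of the table were called lower. The medians were 0.052, 0.047, 0.018 and 0.048 with median centring, centring on non-members, quantile normalization and GC correction, and -0.014 and -0.018 with the length correction and its form from non-members. The cause of these changes was not tested.

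With the length correction, and with its form from non-members, the age difference turned negative in Eif2a (-0.017 and -0.016), Rps3a1 (-0.0034 and -0.0055), Rplp0 (-0.027 and -0.028), Rpl32 (-0.018 and -0.021), Rps25 (-0.043 and -0.045), Rpl4 (-0.061 and -0.061), Eif1b (-0.098 and -0.10), Rpl23 (-0.045 and -0.047), Rpl37 (-0.034 and -0.037), Eif3h (-0.075 and -0.077), Rpl8 (-0.0044 and -0.0063), Rpl35a (-0.053 and -0.061), Rps18 (-0.10 and -0.11), Rpl7l1 (-0.0097 and -0.0087), Rpl39 (-0.078 and -0.085) and Rps4x (-0.015 and -0.017); in Rps14 it turned only with the latter (-0.0041). With quantile normalization it turned in Rpl32 (-0.014) and Eif1b (-0.0072). Against young controls, Rps3a1 in repopulated mice turned with quantile normalization (-0.0040) and Rpl35a with the length correction from non-members (-0.0058).

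Leaving out each library in turn, members called higher with age numbered 23 to 28 and lower 0 to 1, with medians of 0.16 to 0.25, against 31.2% to 47.2% and 7.84% to 16.4% of the table. With repopulation 0 to 12 were called lower (medians -0.14 to -0.074; 0.29% to 14.1% of the table), and against young controls 0 to 4 were called higher (medians 0.075 to 0.12; 1.31% to 7.4% of the table). Without counts, depth sets no stated limit, and n = 3 limits what can be called. No paired analysis was made, because the library labels tie no mouse of a group to a mouse of another. Replicate numbers here only order the libraries within each group.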
